A study of Mus musculus with 16 samples.

Results

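The members described here are the c-Jun peaks on chromosomes 1 to 19 in the deposited c-Jun list, 41480 of the 42134 peaks in that list and of the 193322 peaks in all 4 lists. They were taken whole, with no choice by score, and 654 further c-Jun peaks on chromosome X were kept for a check. The series mapped c-Jun, RUNX1, MyoD and MyoG by chromatin immunoprecipitation followed by sequencing, in muscle cells grown from satellite cells of wild-type C57BL/6 mice aged 2 to 3 weeks. The c-Jun group had 2 libraries, made with a rabbit antibody from proliferating primary myoblasts on culture day 3, and its control group had 2 libraries with rabbit IgG from the same kind of cells. The RUNX1 and MyoD groups, with 2 libraries each, came from proliferating myoblasts of day 3, and the MyoG group, also 2 libraries, from cells of day 4 after 24 h in low-serum medium with insulin. The labels call the c-Jun experiments biological replicates but do not say how many mice each one used.

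Each factor came as 1 peak list, so the 2 c-Jun libraries could not be set against each other and the IgG libraries had no values of their own. No test between libraries was therefore possible. Shares of peaks are given with exact binomial 95% intervals or with their range over the 19 chromosomes. Such intervals cover the counting of peaks only, since peaks are not replicates and neighbouring peaks are not independent. Read depth is unknown, and a factor without a peak at a site may still have been bound below the peak caller's threshold. The list used for MyoG bears an abbreviation and was assigned by elimination, which every MyoG value below rests on.

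c-Jun is a subunit of AP-1, a dimer of Jun and Fos or related leucine-zipper proteins that binds short palindromic DNA elements at promoters and enhancers. It acts downstream of growth factor and stress kinases. In muscle cells AP-1 is associated with proliferation, and c-Jun has been described as an antagonist of MyoD in differentiation. RUNX1 is a Runt-domain factor of proliferating myoblasts, MyoD, of the basic helix-loop-helix family, commits cells to the muscle lineage, and MyoG, or myogenin, is its relative in differentiation.

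The c-Jun list held many weak peaks and few strong ones. Scores are those of the authors' peak caller and were used only to rank peaks within 1 list. The lowest was 50.01, the median 172.5 and the upper quartile 426, and 30.4% of the peaks (12616) lay below 100. At the other end, 286 peaks had a score of exactly 3100 and 36 lay above it, up to 3233. These 322 peaks, 0.776% of the list, were treated as tied. For the comparisons below the peaks were cut into 10 score classes of 4147 to 4149 peaks, from class 1 (50.01 to 60.67) to class 10 (956.4 and above). The median score was 54.9 in class 1, 148.1 in class 5 and 1472 in class 10.

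Stronger c-Jun peaks were wider. The median width was 1124 bp over all peaks, with 5% below 826 bp and 5% above 1846 bp, and the list covered 2.00% of the 19 chromosomes. In class 1 the median was 884 bp (quartiles 790 and 969), in class 5 1114 bp (1066 and 1159) and in class 10 1423 bp (1307 and 1800). The upper quartile moved away from the median only in the top classes. Even the lower quartile of class 10 lay above the upper quartile of the whole list, 1255 bp. The rank correlation of width with score over the 41480 peaks was 0.847. Both values come from the same reads, so this describes the list. On the same chromosomes it was 0.548 for RUNX1, 0.712 for MyoD and 0.723 for MyoG, and the median widths there were 945, 818 and 641 bp.

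**Figure D1:**
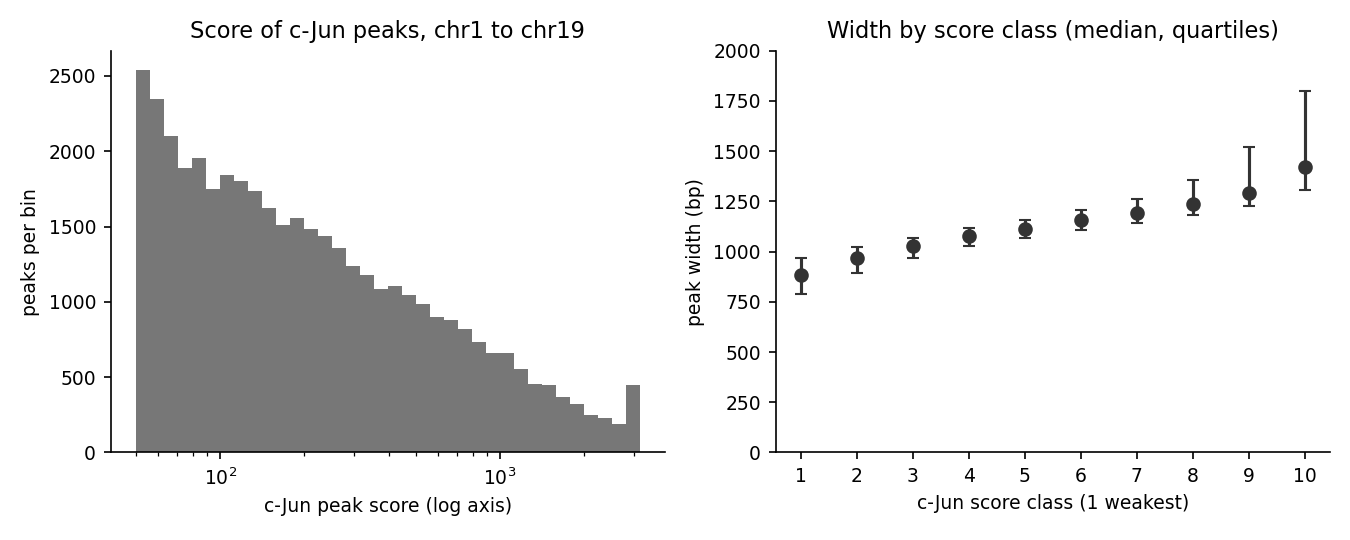
Left, number of c-Jun peaks per bin of the authors' score on a log axis, with scores from 3100 up placed in the last bin. Right, median peak width in bp with quartiles for each of the 10 score classes, from 884 bp in class 1 to 1423 bp in class 10.

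c-Jun peaks were found at similar strength on every autosome but not at the same density. There were 16.8 peaks per Mb in all, from 12.7 on chromosome 14 to 20.4 on chromosome 19 and 21.5 on chromosome 11. The median width per chromosome stayed between 1114 and 1138 bp and the median score between 160.9 and 184. The share of c-Jun peaks that met a RUNX1 peak went from 41.4% on chromosome 3 to 54.4% on chromosome 11. For MyoD the range was narrower, 41.7% to 46.6%. Chromosome 11 was thus the densest in c-Jun peaks and the one with the highest RUNX1 share.

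Over the whole list, 47.2% of c-Jun peaks overlapped a RUNX1 peak by at least 1 bp, 44.2% a MyoD peak and 45.4% a MyoG peak of the later myotubes. At least 1 of these 3 lists was met by 66.5%, all 3 by 25.1%, and none by 33.5% (13905 peaks). These shares are the background for the score classes, because the classes divide the same list.

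The partner shares were higher in every successive score class. RUNX1 met 29.6% (95% interval 28.2 to 31.0) of class 1, 42.6% of class 5 and 76.6% (75.3 to 77.9) of class 10. MyoD met 28.8% (27.4 to 30.2), 40.7% and 67.9% (66.5 to 69.4), and MyoG 31.0% (29.6 to 32.4), 41.7% and 68.2% (66.8 to 69.6). In class 1 the 3 lists thus stood within a few percentage points of each other, and in class 10 RUNX1 lay above the other 2. The difference of class 10 minus class 1 was 47.0 percentage points for RUNX1, 39.1 for MyoD and 37.2 for MyoG. It was above 0 on 19 of 19 chromosomes for each list, with ranges of 38.8 to 56.2, 29.1 to 47.1 and 32.4 to 49.5. Within class 10 the strongest peaks had still higher shares. Cut into 10 again by score, from its weakest to its strongest part, RUNX1 went from 71.0% to 84.3%, MyoD from 65.9% to 76.1% and MyoG from 63.0% to 79.3%. In percentile class 96 of the whole list RUNX1 was at 78.0%, MyoD at 64.5% and MyoG at 63.8%. For MyoD and MyoG the rise within class 10 thus lay above that percentile.

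Most of the difference between the classes lay in peaks that met all 3 lists. Their share was 12.1% (11.1 to 13.1) in class 1 and 52.4% (50.9 to 54.0) in class 10, 4.33 times as high. Peaks without any of the 3 made up 51.0% (49.5 to 52.5) of class 1 and 11.1% (10.2 to 12.1) of class 10. Several combinations in between differed little. RUNX1 alone was at 11.0% in class 1 and 13.3% in class 10, RUNX1 with MyoG at 5.47% and 6.77%, and MyoD with MyoG at 9.69% and 8.15%. MyoD alone had 5.98% and 3.23%, and MyoG alone 3.71% and 0.868%. RUNX1 with MyoD but without MyoG was rare throughout, with 1.04% of class 1 and 4.12% of class 10. Read from the combinations, c-Jun peaks with all 3 lists had a median score of 325 and a median width of 1230 bp, against 116.7 and 1068 bp for those with none. Peaks with MyoG alone, at 119.8, were about as weak as those with none, and peaks with RUNX1 alone had a median of 195.1.

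**Figure D2:**
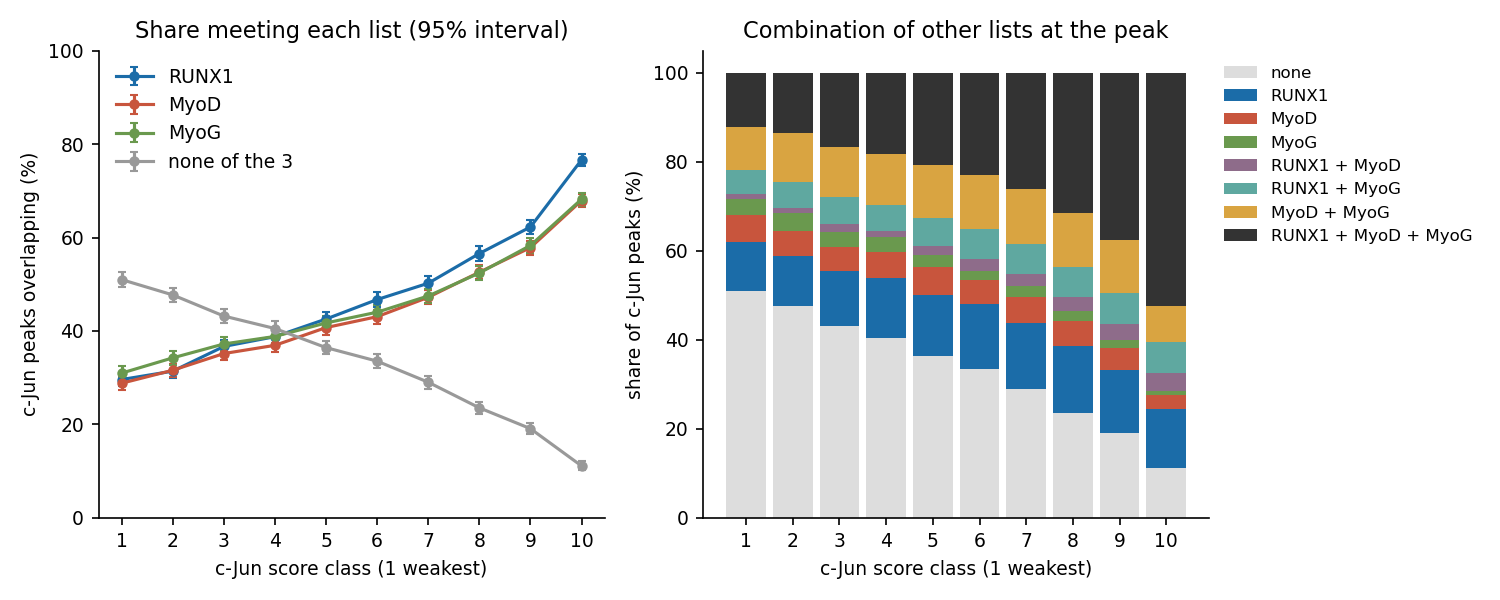
Left, share of c-Jun peaks in each score class that overlap a RUNX1, MyoD or MyoG peak or none of them, with exact binomial 95% intervals. Right, the same peaks split into the 8 combinations; the dark segment with all 3 lists goes from 12.1% in class 1 to 52.4% in class 10 while RUNX1 alone is at 11.0% and 13.3%.

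Wider peaks have more room to be overlapped, so the centres were compared as well. A centre is the midpoint of the peak interval, which can lie away from the point of highest signal, more so in a wide peak. With centres within 150 bp, the differences of class 10 minus class 1 were smaller: 24.2 percentage points for RUNX1, 17.0 for MyoD and 16.1 for MyoG. As a ratio, the RUNX1 share of class 10 was 2.53 times that of class 1 under this rule (40.0% and 15.8%) and 2.59 times under the overlap rule. For MyoD the ratio was 1.89 by centres and 2.36 by overlap, and for MyoG 1.795 and 2.20. The relative gain of RUNX1 was therefore nearly the same under both rules, and that of the helix-loop-helix factors was lower by centres. Among overlapping peaks, 66.6% of the MyoD partners of class 1 and 53.3% of those of class 10 had their centre within 150 bp. For RUNX1 partners the values were 53.4% and 52.2%. Peaks with all 3 centres within 150 bp made up 4.56% of class 1 and 15.9% of class 10.

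Partner centres were packed around c-Jun centres and thinned out within about 1 kb. The density at 20 to 100 kb from a c-Jun centre, 0.0358 RUNX1 centres per kb, 0.0369 MyoD centres and 0.0518 MyoG centres, served as the local reference. Within 50 bp of a c-Jun centre the density was 31.0 times the reference for RUNX1, 31.4 times for MyoD and 22.9 times for MyoG. At 500 to 1000 bp it was 1.64, 1.67 and 1.60 times, and at 10 to 20 kb 1.13, 1.16 and 1.14 times. Within 50 bp the RUNX1 density was 21.1 times its reference around class 1 peaks and 45.9 times around class 10 peaks. For MyoD these values were 24.6 and 36.5, and for MyoG 18.2 and 28.6. The references themselves, 0.0338 RUNX1 centres per kb around class 1 and 0.0394 around class 10, differed far less.

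**Figure D3:**
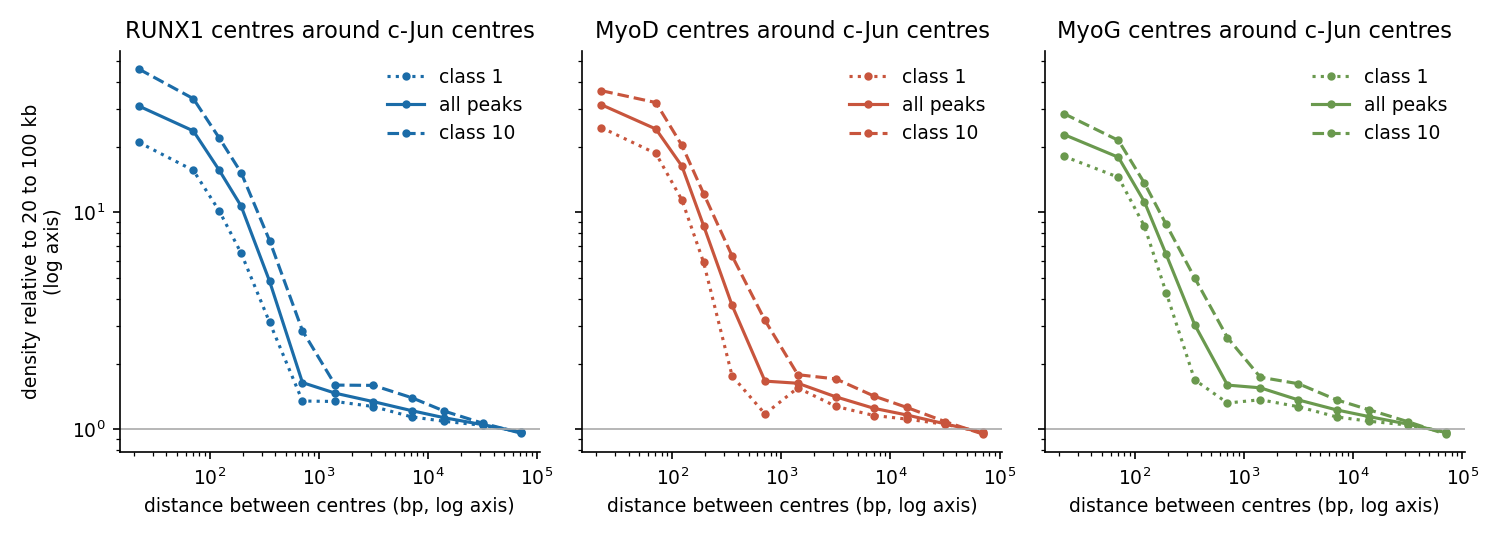
Density of RUNX1, MyoD and MyoG peak centres against distance from c-Jun peak centres in bp, divided by the density at 20 to 100 kb, both axes logarithmic, with the 0 to 50 bp bin drawn at the left end. The curves of class 10 start above those of class 1, at 45.9 and 21.1 for RUNX1, and all approach 1 beyond 10 kb.

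Score and width could be separated in part. In class 5, where scores run only from 128.8 to 172.5, the RUNX1 share was 28.8% among the 299 peaks of the narrowest of 5 width classes (554 to 987 bp). It was 59.6% among the 317 peaks of the widest (1304 bp and above). MyoD had 38.1% and 50.8% there. By centres within 150 bp, RUNX1 had 17.7% and 19.9%, a difference whose 95% interval includes 0, while the order of MyoD turned, to 27.8% and 11.0%, and so did that of MyoG, by -10.4 percentage points. In the weakest classes the RUNX1 overlap was not higher in wider peaks. In class 1 it was 30.8% in the narrowest width class and 24.4% in the next, and in class 2 it was 34.1%, 28.0% and 17.3% over the narrowest 3. In class 5, wide c-Jun peaks thus overlapped partners more often, but mostly with midpoints more than 150 bp apart. Points of highest signal were not used, so the distance of partners from the c-Jun binding site was not tested.

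Strong c-Jun peaks also met strong partner peaks. The best MyoD peak under a c-Jun peak of class 1 lay at a median of class 6 of the MyoD list, and under a c-Jun peak of class 10 at class 9. For RUNX1 the medians were 6 and 8, and for MyoG 7 and 8. A MyoD peak of its own top class was present at 8.87% of the class 1 peaks that met MyoD and at 35.5% of those of class 10. The corresponding values were 11.4% and 25.5% for RUNX1 and 12.8% and 29.6% for MyoG. Strong c-Jun peaks more often spanned several partner peaks: 15.7% of the class 10 peaks that met MyoG met 2 or more, against 2.88% in class 1. For MyoD this was 10.2% against 0.921%, and for RUNX1 7.17% against 0.651%. The best of several peaks tends to rank higher, and c-Jun peaks with a single partner peak were not compared separately.

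From the partners' side the same overlap was graded by the partner's score. c-Jun met 22.7% of the MyoD peaks in the weakest of 10 classes of the MyoD score and 79.8% of those in the strongest. The shares were 27.1% and 76.0% for RUNX1 peaks and 20.5% and 60.1% for MyoG peaks. The 3 gradients were read off different lists whose depth is unknown, so the differences between them were not tested.

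At c-Jun peaks the 3 other lists were positively associated with each other, also among c-Jun peaks of similar score. The log2 odds ratio of RUNX1 with MyoD over all c-Jun peaks was 1.61, and within the 10 score classes (Mantel-Haenszel estimate) 1.35, with a range of 1.01 to 1.65 over the chromosomes. For RUNX1 with MyoG the value within classes was 2.31 (2.08 to 2.61), and for MyoD with MyoG 4.48 (4.20 to 4.78). All 3 were above 0 on 19 of 19 chromosomes. Single classes gave 1.22 to 1.57 for RUNX1 with MyoD, and both the weakest (1.48) and the strongest class (1.57) were at the upper end. In class 10, MyoD was at 73.8% of the peaks with RUNX1 and 48.7% of those without. In class 1 the same shares were 44.4% and 22.3%.

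Split by RUNX1 and MyoD, the MyoG share of myotubes was similar in c-Jun classes 1 and 10, except at peaks with MyoD but not RUNX1. This split was added after the shares had been seen. Where neither RUNX1 nor MyoD was present (15007 peaks), MyoG met 7.34% of the c-Jun peaks, with 6.79% in class 1 and 7.24% in class 10 and 5.95% to 9.17% over the classes. With RUNX1 but not MyoD (8142 peaks) it met 32.4%, with 33.2% in class 1 and 33.7% in class 10. With both (11417 peaks) it met 91.3%, with 92.1% and 92.7%. With MyoD but not RUNX1 (6914 peaks) it met 67.2%, and there class 10 lay above class 1, at 71.6% (67.3 to 75.6) and 61.8% (58.0 to 65.6). What differed over the classes was the mix. The state with both was 13.1% of class 1 and 56.6% of class 10, and that with neither 54.7% and 12.0%. With the MyoG share of each state held at its value over all classes, the mix of states gave 31.9% MyoG in class 1 and 66.7% in class 10. This is a difference of 34.8 percentage points beside the observed 37.2. Near the ends of the scale, as with both and with neither, the same odds ratio gives a smaller difference in percentage points. Whether c-Jun strength goes with MyoG beyond this mix was not tested. MyoG was mapped in another cell stage than the other factors, so factor and stage cannot be told apart here.

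**Figure D4:**
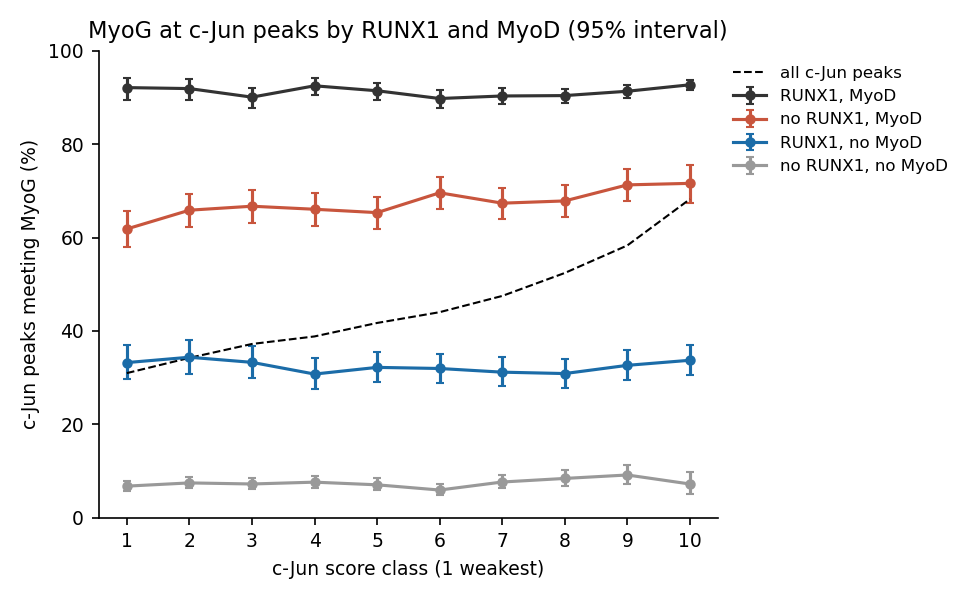
Share of c-Jun peaks that meet a MyoG peak in each c-Jun score class, split by whether RUNX1 and MyoD are present, with exact binomial 95% intervals. The dashed line of all c-Jun peaks goes from 31.0% to 68.2%, while the lines with both and with neither stay near 91.3% and 7.34%.

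c-Jun peaks were unevenly spaced. Between neighbouring centres the median distance was 19.8 kb (quartiles 7.17 and 49.3 kb), 10% of the 41461 pairs lay within 2.98 kb and 10% were more than 109.4 kb apart. The number of pairs per kb of spacing was highest, at 2132, from 1 to 2 kb, was 1046 at 7.5 to 10 kb and 276.3 at 30 to 50 kb. Spacings under 1 kb were nearly missing (32 pairs), a range in which peaks of this width would touch. Strong peaks had nearer neighbours, with a median distance to the nearest c-Jun centre of 7.04 kb in class 10 and 10.3 kb in class 1.

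Joining peaks whose edges lay at most 12.5 kb apart gave 24866 groups, of which 16096 were single peaks and 8770 were clusters of 2 or more. Clusters held 61.2% of the peaks. With a joining distance of 5 kb this share was 37.9%, so it describes the rule as much as the list. Clusters of 5 or more numbered 955 and held 14.7% of the peaks, and 73 clusters had 10 or more. Of class 1 peaks 12.4% lay in a cluster of 5 or more, and of class 10 peaks 20.01%.

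c-Jun peaks in clusters of 5 or more met the other factors more often than single peaks of the same score class. RUNX1 was at 41.2% of single peaks, 46.5% of peaks in pairs, 51.7% in clusters of 3 to 4 and 56.9% in clusters of 5 or more. MyoD had 39.2%, 43.8%, 48.5% and 51.4%, and MyoG 39.7%, 44.3%, 50.2% and 54.7%. The median c-Jun score differed as well, 154.2 for single peaks and 207.1 in clusters of 5 or more. Within each of the 10 score classes the large clusters still lay above the single peaks, by 8.66 to 16.0 percentage points for RUNX1, 6.55 to 12.0 for MyoD and 9.66 to 17.3 for MyoG. Pairs did not in every class: in class 8, RUNX1 was at 53.4% of peaks in pairs and 54.8% of single peaks. With centres within 150 bp, an alternative added later, the differences for clusters of 5 or more kept their sign in 10 of 10 classes for each list but were smaller, 0.949 to 6.51, 0.977 to 6.46 and 1.22 to 9.06.

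**Figure D5:**
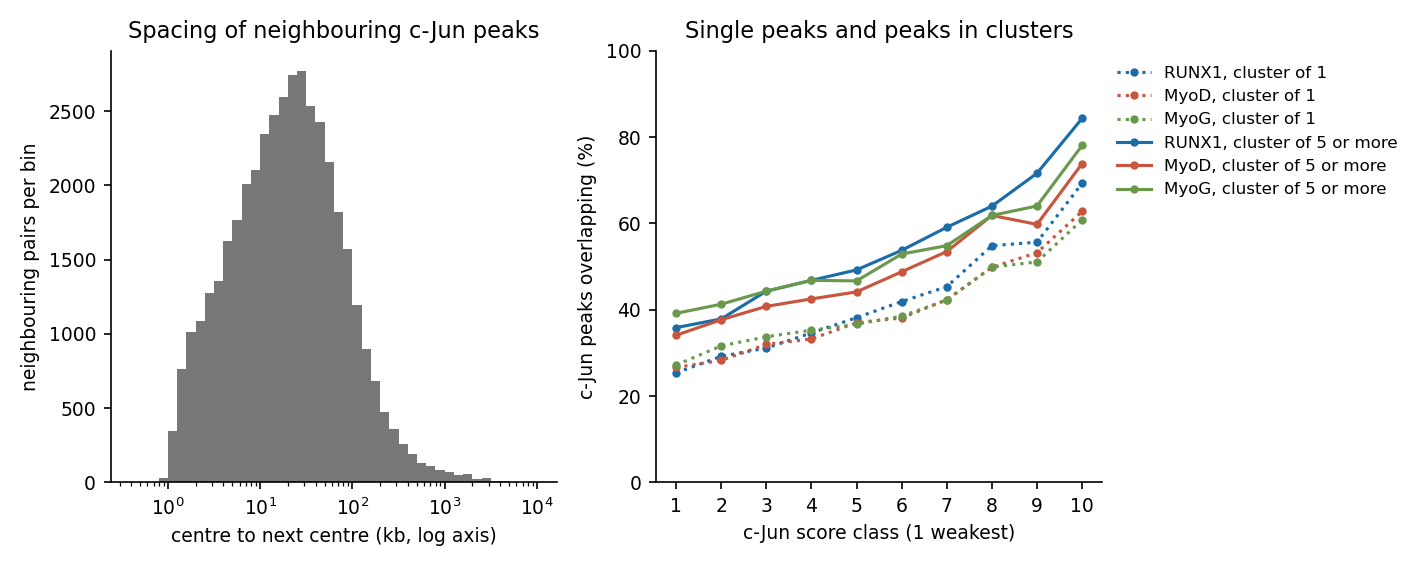
Left, number of neighbouring c-Jun pairs per bin of centre distance in kb on a log axis, with a median of 19.8 kb. Right, share of c-Jun peaks that overlap RUNX1, MyoD or MyoG over score classes for single peaks (dotted) and peaks in clusters of 5 or more (solid); each solid line lies above the dotted line of its factor.

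Neighbouring c-Jun peaks were hardly alike in strength but were alike in their partners. For the 4655 pairs with at most 2 kb between their edges, the rank correlation of the 2 scores was 0.042, and for 4579 pairs more than 100 kb apart it was -0.0092. Within 2 kb, and leaving out pairs under 1 shared RUNX1 peak, the next c-Jun peak met RUNX1 in 56.1% of cases after one with RUNX1 and in 45.9% after one without. Beyond 100 kb these shares were 38.4% and 32.6%. At equal score classes the log2 odds ratio that both neighbours met RUNX1 was 0.64 within 2 kb, 0.48 at 2 to 5 kb and 0.48 beyond 100 kb. For RUNX1 it stayed between 0.41 and 0.49 at all distances beyond 2 kb. For MyoG the values within 2 kb, at 2 to 5 kb and beyond 100 kb were 0.87, 0.47 and 0.22, and for MyoD 0.39, 0.33 and 0.12. Pairs under 1 shared peak, which were left out, had the factor at both c-Jun peaks. Within 2 kb this left 4236 of the 4655 pairs for RUNX1, 4511 for MyoD and 4515 for MyoG. The short-range value was thus lowered most for RUNX1, and the change with distance cannot be compared between the lists.

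The strongest peak of each cluster was set beside its companions; since it was chosen by its score, the gap in score is a description. In the 3745 clusters of 3 or more, the strongest peak had a median score of 729.7 and its 11589 companions 137.6, and the median ratio of the strongest to the median companion was 3.94. The strongest peaks met RUNX1 in 67.2% and the companions in 49.4%. Within score classes the order was the other way. Companions lay above strongest peaks in 10 of 10 classes for RUNX1, by 0.395 to 9.31 percentage points, in 10 of 10 for MyoG and in 8 of 10 for MyoD. Class 1 held only 4 strongest peaks and class 2 only 13, and the 9.31 for RUNX1 came from class 1. Cluster size was not held equal in this comparison. Inside class 10, companions met RUNX1 in 85.2% (466 peaks) and strongest peaks in 82.1% (1462 peaks), and in class 7 in 56.1% and 55.7%.

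The cluster with the most c-Jun peaks, 18, lay at chr8:129060749-129140288 and spanned 79.5 kb, 28.2% of it covered by c-Jun peaks. Its scores ran from 50.23 to 3100 with a median of 224.2; 12 of the peaks met RUNX1, 10 MyoD, 12 MyoG, 9 all 3 and 4 none. A cluster of 15 peaks at chr1:195143016-195240906 spanned 97.9 kb and also reached 3100, with 6 peaks that met all 3 lists and 4 that met none. Another 15 lay at chr11:88327686-88408069, with scores up to 1445, and 15 at chr2:163170286-163245961, a weaker cluster with a median score of 121.8 and a highest of 1212. The last of the 5, at chr3:95428223-95512395, held 14 peaks with a median of 403.8, and 10 of them met RUNX1. Every one of these 5 clusters held both c-Jun peaks with all 3 lists and peaks with none. Over all clusters of 5 or more, 34.7% of peaks met all 3 and 26.0% none. Both kinds were therefore likely to occur in clusters of 14 to 18 peaks.

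The widest c-Jun peaks differed in how many other lists they met. Of 17 peaks wider than 4 kb, 11 met all 3 lists and 5 met none. Over all c-Jun peaks 25.1% met all 3 and 33.5% none, and in class 10 these shares were 52.4% and 11.1%. The widest, 6921 bp at chr17:39979444-39986364 with a score of 2053, met no peak of any other list and had no c-Jun neighbour within 12.5 kb. Whether it lies in repeated sequence or a region of high signal in any library was not tested. A second wide peak without partners, 5104 bp at chr15:102318273-102323376, had a score of 815.3 and belonged to a cluster of 7. By contrast, the peak of 5668 bp at chr11:75271703-75277370, with a score of 3100, spanned 2 RUNX1, 4 MyoD and 5 MyoG peaks, with best scores of 2949, 2199 and 2213. The peak of 4857 bp at chr2:33058383-33063239, with a score of 1422, met 2 RUNX1, 3 MyoD and 3 MyoG peaks. At chr19:9055002-9059810 a peak of 4809 bp with a score of 3213 met 2 RUNX1 peaks and 1 each of MyoD and MyoG, whose scores were 3100 and 3090. A further pair among the 5 widest peaks from 3100 up also met all 3 lists. That at chr6:99880049-99884837 had best scores of 342.4 for RUNX1, 796.5 for MyoD and 378.1 for MyoG, and that at chr2:13476947-13480998 had 214.3, 167.9 and 51.11. Of these scores only that of MyoD at the chr6 peak lay above the upper quartile of its own list, 471.6.

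Even among the strongest c-Jun peaks a few stood alone. Of the 322 peaks from 3100 up, 22 met none of the other lists (6.83%, 95% interval 4.33 to 10.2), 208 met all 3, and 84.5% met RUNX1. The 5 widest of those alone lay at chr19:57419422-57423725 (4304 bp), chr3:95963533-95965812 (2280 bp), chr11:17367978-17369663 (1686 bp), chr15:11503355-11505018 (1664 bp) and chr13:17602539-17604137 (1599 bp). Others met a single list. With RUNX1 alone, the 3 named peaks lay at chr1:180146889-180149252, chr19:20467496-20469670 and chr10:80213726-80215849, and the RUNX1 scores there were 445.9, 1232 and 622.7. With MyoD alone they lay at chr12:113101618-113103580, chr16:47842320-47844217 and chr3:126766291-126767867, with MyoD scores of 204.8, 1370 and 170.1. With MyoG alone they lay at chr8:84389154-84391876, chr1:40903896-40905475 and chr13:32976157-32977553, with MyoG scores of 62.23, 65.31 and 169.9.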

How the data were processed

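The values are deposited peak lists on mouse build mm9, 1 per factor; CASAVA 1.7.0 and 1.8.2 and Bowtie are named in the submitters' processing notes. Column 5 holds the score that the authors' peak caller wrote per the file's peak names, which begin with MACS; its version, settings, control and treatment of replicates were not given in the sources used here. Per the labels' protocols, chromatin was sonicated to about 300 bp and libraries of about 250 bp had 15 PCR cycles. All later steps used Python 3.11.15, numpy 2.4.6, pandas 2.3.3 and scipy 1.17.1, with chromosome lengths from GenomeInfoDb 1.38.1; 0 peaks lay beyond an mm9 end. Starts are 1-based. Peaks met if they shared at least 1 bp, and centres were the midpoints of peak intervals. Score classes were 10 equal ranks with scores from 3100 up tied, odds ratios were Mantel-Haenszel estimates, and clusters joined edges at most 12.5 kb apart. The scripts were checked on simulated data.

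Named regions were the 5 widest peaks, the 5 widest from 3100 up, the 5 clusters with most peaks, the 5 highest-scoring peaks without partner and the 3 highest for each single partner, ties going to the wider peak. Peaks of chromosome 18 were counted but not named. Members, lists and rules were chosen with earlier results of these data known. Genes, motifs and sequences were not analysed here, since no genome or annotation of mm9 was used. Alternatives were other overlap rules, a minimum score of 100, chromosome X, other classes and other joining distances.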

Additional observations from a re-analysis of the deposited data

How the results depend on the processing

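Of 42 alternatives to 8 results, 33 concerned differences between score classes and odds ratios, none of which changed sign, and 9 concerned shares, which cannot; 28 moved a value beyond its 95% interval. An alternative added after the data were seen used centres within 150 bp for the width classes of class 5. It reversed the difference between widest and narrowest peaks for MyoD (12.7 to -16.7 percentage points) and MyoG (22.5 to -10.4). Neighbour and strongest-peak results were not varied. Nor were the MyoG shares by RUNX1 and MyoD state, the score classes of the partners met and the shares read from the partners' side. The class 10 minus class 1 differences for RUNX1, MyoD and MyoG were 47.0, 39.1 and 37.2 percentage points. By centres within 150 bp they were 24.2, 17.0 and 16.1. Windows of 200 bp around centres are a looser form of that rule, met when centres lie less than 200 bp apart. Using these windows, the differences were 28.6, 19.98 and 19.1. They were 44.2, 36.7 and 34.5 without scores from 3100 up and the widest 1%, and 39.0, 32.0 and 31.0 with scores of at least 100 in every list. The share without partner, 33.5%, was 35.7% with an overlap of 50% of the shorter peak, 53.9% by centres within 150 bp, 49.4% in windows of 200 bp and 35.9% with scores of at least 100. The log2 odds ratios of RUNX1 with MyoD, RUNX1 with MyoG and MyoD with MyoG were 1.61, 2.50 and 4.59 without classes, 1.24, 1.77 and 4.16 by centres, and 1.24, 2.09 and 4.75 with scores of at least 100. The clustered share, 61.2%, was 37.9% with 5 kb, 78.7% with 25 kb and 52.1% with scores of at least 100. No paired analysis was possible because both libraries of a factor went into 1 list, and no replicate could be left out. Motif windows were not run without an mm9 genome. Depth is unknown, so a missing peak does not show that a factor was absent.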
